A study of Mus musculus with 2 samples.

Results

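The nuclear-encoded subunit genes of the mitochondrial respiratory chain were followed through the cell types of the postnatal mouse liver, with and without c-Maf in the endothelium. They were chosen by symbol alone, as genes beginning with Ndufa, Ndufb, Ndufc, Ndufs, Ndufv, Uqcr, Cox4i, Cox5, Cox6, Cox7, Cox8 or Atp5, without the 8 Ndufaf assembly factor genes and 1 pseudogene symbol. This gave 81 of the 32285 genes measured, with 38 grouped by symbol under complex I, 8 under complex III, 18 under complex IV and 17 under complex V. The c-Maf KO library held endothelial and hematopoietic cells of c-Maf KO endothelial cell mice, pooled from 1 male and 1 female at postnatal day 15. The control library held the same sorted populations of control mice, again pooled from 1 male and 1 female at postnatal day 15. The labels used here name neither the driver nor the deleted stretch of the Maf allele, and a sample title places the deletion in endothelial cells. Cells were sorted by flow cytometry and captured in droplets, and reads were collapsed by their unique molecular identifiers (UMIs), which makes each value a number of captured transcripts.

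The respiratory chain passes electrons from NADH through complex I, complex III and complex IV to oxygen, and complex V, the ATP synthase, uses the resulting proton gradient to make ATP. Mitochondrial DNA encodes some core subunits of these complexes, down to a single one in complex III, and the nucleus encodes all others, so both genomes contribute to every complex measured here. Some complex IV subunits and the c subunit of complex V have several genes, of which certain isoforms are known from muscle, testis or hypoxic tissue.

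With 1 library per group, no difference below has a replicate check, no p-value was computed, and every 95% interval covers counting error only. The c-Maf KO library held 60281713 UMIs and the control library 54143192, and the authors annotated 8166 c-Maf KO and 7669 control cells into 23 clusters. The libraries shared 21 cell barcodes. Endothelial cells were those of the authors' clusters KOS_1, KOS_2, KOS_3, S, S2, PV and C-EC. There were 2991 such c-Maf KO cells at a median depth of 7320 UMIs, and 2948 such control cells at 4985.5 UMIs. Maf, the targeted gene, stood at 162 CPM (UMIs per 1000000 UMIs) in c-Maf KO endothelial cells and 2070 CPM in control endothelial cells. In all other cells it stood at 62.5 CPM in the c-Maf KO library and 182 CPM in the control library, where Kupffer-type cluster K, a cell type known to express Maf, had 193 c-Maf KO and 766 control cells. Of the marker lists, the 6 endothelial genes summed to 4573 CPM in c-Maf KO endothelial cells and 5755 CPM in control endothelial cells, and none of them was at 0.

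Taken over all endothelial cells, respiratory chain transcripts made up a larger share of the c-Maf KO library than of the control library, and the shift was small, broad and seldom as large as 1.5-fold. The 81 genes together held 2.22% of UMIs in c-Maf KO endothelial cells and 1.81% in control endothelial cells. The log2 ratio of these shares was 0.29 (95% interval 0.29 to 0.30), which is 1.23-fold. Of the 81 genes, 74 reached 50 UMIs over both libraries and entered the ratios, and 7 rarely detected isoforms did not. The ratio was above 0 for 71 of these 74, and its interval lay above 0 for 66. The median over the 74 members was 0.28, beside a median of -0.08 over all genes measured at the same minimum.

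To pass the size rule, a gene needed a difference of 1.5-fold or more, an interval without 0 and the same minimum of 50 UMIs; such genes are called higher or lower below. By this rule 4 members were called higher, Cox6b2, Atp5g1, Ndufb2 and Atp5b, where the rule called 14.2% of all genes higher. No member was called lower, where the rule called 15.5% of all genes lower. Fewer members than genes at large thus passed the size rule, although nearly all leaned the same way. With the minimum fold set midway between 1 and 1.5, 29 of 74 members were called higher, and 21.8% of all genes.

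**Figure D1:**
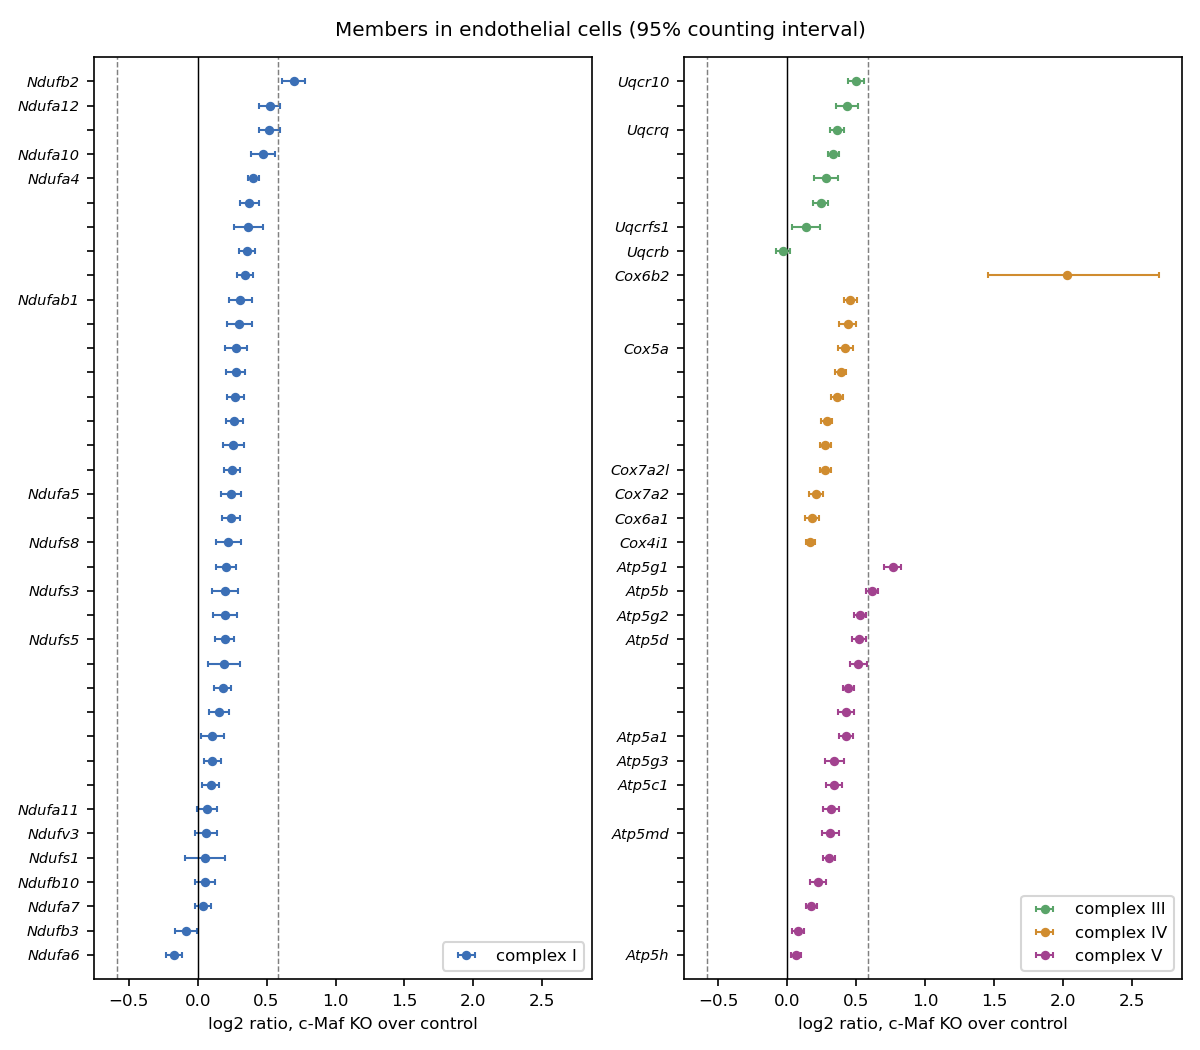
Ratio of each of the 74 members in endothelial cells (x axis, log2 of c-Maf KO divided by control), with 95% counting intervals, ordered within complexes I, III, IV and V, with names on the rows of members described in the text. The solid line marks equality and the dashed lines 1.5-fold, and Ndufa6 and Ndufb3 alone have intervals below 0.

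The ATP synthase had the highest summed ratio of the complexes. Its 17 genes held 0.704% of UMIs in c-Maf KO endothelial cells and 0.550% in control endothelial cells, a log2 ratio of 0.36 (0.35 to 0.37), and the interval lay above 0 for 17 of 17. Atp5g1, one of 3 genes that encode the identical c-ring subunit, stood at 331 CPM in c-Maf KO endothelial cells and 195 CPM in control endothelial cells, a log2 ratio of 0.76 (0.70 to 0.82). Atp5b, the catalytic beta subunit, stood at 631 CPM in c-Maf KO endothelial cells and 412 CPM in control endothelial cells, a log2 ratio of 0.61 (0.57 to 0.66). These were the complex V genes past 1.5-fold. The alpha subunit gene Atp5a1, partner of Atp5b in the catalytic head, had a ratio of 0.42, the gamma subunit gene Atp5c1 of the central stalk 0.34, and the delta subunit gene Atp5d 0.52. At the low end lay Atp5h, a subunit of the peripheral stalk, with 659 CPM in c-Maf KO endothelial cells and 631 CPM in control endothelial cells (0.06, 0.03 to 0.10).

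The 3 c-subunit genes shifted to different extents, so that their mix differed while the protein they encode is the same. Atp5g1 supplied 30.0% (29.4 to 30.6) of the c-subunit UMIs in c-Maf KO endothelial cells and 26.0% (25.2 to 26.8) in control endothelial cells. Atp5g2 supplied 51.6% in c-Maf KO and 52.6% in control endothelial cells, with a ratio of its level of 0.53, and Atp5g3 18.4% and 21.4%, with a ratio of 0.34. With the control library's mix of clusters applied to both libraries, the ratio of Atp5g1 was 0.13 (-0.018 to 0.28). That of Atp5g2 was then 0.079 (-0.029 to 0.19), so both intervals held 0.

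The promoters of these 3 genes are shown because they serve 1 protein at 3 unequal ratios over all endothelial cells. Those of Ndufb2 and Ndufa6, the complex I members with the highest and the lowest ratio there, are added. The windows run 5′ to 3′ from 250 bases before to 50 bases after the annotated start (RefSeq, build GRCm38.p6), and capitals mark matches on either strand to the motifs named after them.
Atp5g1 chr11:96075582-96075881 (minus strand): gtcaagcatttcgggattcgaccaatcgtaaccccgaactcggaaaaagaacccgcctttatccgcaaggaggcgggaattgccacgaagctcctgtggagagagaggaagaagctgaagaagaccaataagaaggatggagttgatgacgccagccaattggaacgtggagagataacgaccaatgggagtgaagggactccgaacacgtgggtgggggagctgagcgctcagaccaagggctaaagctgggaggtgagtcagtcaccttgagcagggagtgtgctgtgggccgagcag
Atp5g2 chr15:102670998-102671297 (minus strand): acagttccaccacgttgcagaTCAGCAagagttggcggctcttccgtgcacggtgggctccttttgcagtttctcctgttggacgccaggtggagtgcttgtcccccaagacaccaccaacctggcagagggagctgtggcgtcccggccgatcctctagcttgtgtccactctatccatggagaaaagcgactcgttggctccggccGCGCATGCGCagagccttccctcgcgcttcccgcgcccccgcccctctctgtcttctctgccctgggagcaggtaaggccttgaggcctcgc
Atp5g3 chr2:73911277-73911576 (minus strand): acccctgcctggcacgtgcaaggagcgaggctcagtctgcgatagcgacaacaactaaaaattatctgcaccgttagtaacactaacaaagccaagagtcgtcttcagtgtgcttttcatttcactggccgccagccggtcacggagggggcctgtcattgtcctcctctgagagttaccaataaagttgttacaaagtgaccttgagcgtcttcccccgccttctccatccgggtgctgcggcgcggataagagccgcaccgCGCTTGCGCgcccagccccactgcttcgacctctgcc
Ndufb2 chr6:39592315-39592614 (plus strand): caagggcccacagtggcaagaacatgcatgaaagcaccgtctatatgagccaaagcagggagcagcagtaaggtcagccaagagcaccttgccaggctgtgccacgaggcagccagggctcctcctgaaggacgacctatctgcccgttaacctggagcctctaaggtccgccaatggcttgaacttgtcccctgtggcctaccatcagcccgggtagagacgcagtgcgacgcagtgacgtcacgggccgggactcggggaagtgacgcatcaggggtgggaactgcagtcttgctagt
Ndufa6 chr15:82354242-82354541 (minus strand): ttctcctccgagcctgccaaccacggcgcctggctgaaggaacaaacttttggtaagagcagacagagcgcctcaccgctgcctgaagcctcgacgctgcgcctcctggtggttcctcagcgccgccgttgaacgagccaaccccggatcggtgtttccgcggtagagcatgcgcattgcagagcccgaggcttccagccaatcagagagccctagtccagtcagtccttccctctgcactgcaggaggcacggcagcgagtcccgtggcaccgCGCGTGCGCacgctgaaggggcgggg
The motifs searched were GCGCANGCG for NRF1, a known activator of nuclear respiratory chain genes, CCGGAAG for the ETS factor GABPA, AAGATGGCG for YY1 and the core TGCTGA of Maf recognition elements. Atp5g2 held a palindromic NRF1 match, read as 2 overlapping matches on both strands, and a Maf core, Atp5g3 and Ndufa6 held 1 NRF1 match each, and Atp5g1 and Ndufb2 held none of the 4 motifs. A window was found for 66 members, 65 by symbol and 1 by an older symbol. The NRF1 motif was present in 18 of the 66 (27.3%), against 7.03% of 27025 genes with a window. The ETS motif was present in 22.7% of the members and 9.93% of all genes, and the YY1 motif in 10.6% and 1.64%. The Maf core was present in 12.1% of the members and 21.7% of all genes. The motifs do not contain one another, and a match of letters was not tested as a binding site. The genes at large were not matched to the members in expression or base content.

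Complex I, the NADH dehydrogenase, had a lower summed ratio than the other complexes and held both members with intervals below 0. Its 38 genes held 0.709% of UMIs in c-Maf KO endothelial cells and 0.602% in control endothelial cells, a log2 ratio of 0.24 (0.23 to 0.25), and the interval lay above 0 for 30 of 37 members measured. The grouping is by symbol and counts Ndufa4, which is known as a complex IV subunit, and its paralog Ndufa4l2. Without these genes the share was 0.652% in c-Maf KO and 0.558% in control endothelial cells (0.22, 0.21 to 0.24). Ndufb2, an accessory subunit of the membrane arm, stood at 177 CPM in c-Maf KO and 109 CPM in control endothelial cells (0.70, 0.61 to 0.78). The accessory subunit gene Ndufa12 had a ratio of 0.52, and -0.097 with the control library's cluster mix. Ndufa6, an accessory subunit of the peripheral arm, stood at 220 CPM in c-Maf KO and 248 CPM in control endothelial cells (-0.17, -0.23 to -0.11). Ndufb3 stood at 138 CPM in c-Maf KO and 147 CPM in control endothelial cells (-0.09, -0.16 to -0.01). On a total without mitochondrially encoded, ribosomal protein and hemoglobin genes Ndufb3 turned to 0.080 (0.0024 to 0.16) and the interval of Ndufa6 held 0. In male-type cells Ndufb3 was at 0.063 with an interval that held 0, and in female-type cells at -0.13 (-0.24 to -0.022). Ndufa6 was at -0.10 (-0.24 to 0.028) in male-type and -0.058 (-0.15 to 0.033) in female-type cells. The intervals of 5 further complex I members held 0, among them those of Ndufa7, Ndufb10 and Ndufs1, the largest core subunit.

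Complex III, the cytochrome bc1 complex, had 8 genes by symbol at 0.237% of UMIs in c-Maf KO and 0.195% in control endothelial cells (0.28, 0.26 to 0.30). Uqcr10 had the highest ratio among the 8, 0.50, with 325 CPM in c-Maf KO and 230 CPM in control endothelial cells. The symbol rule leaves out Cyc1, the cytochrome c1 gene of this complex, at 118 CPM in c-Maf KO and 83.1 CPM in control endothelial cells (0.51, 0.42 to 0.61). Uqcrfs1, the Rieske iron-sulfur protein, had a ratio of 0.13, and Uqcrb was the member whose interval held 0, with 346 CPM in c-Maf KO and 353 CPM in control endothelial cells (-0.03, -0.08 to 0.02). Complex IV, cytochrome c oxidase, stood at 0.570% of UMIs in c-Maf KO and 0.466% in control endothelial cells (0.29, 0.28 to 0.31), with intervals above 0 for 12 of 12 genes measured. The single most abundant member was Cox4i1, which showed the lowest ratio of complex IV, at 1022 CPM in c-Maf KO and 910 CPM in control endothelial cells (0.17, 0.14 to 0.20).

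Endothelial cells used the common isoform of each complex IV subunit in both libraries. The hypoxia-linked Cox4i2 supplied 0.0735% of the Cox4i UMIs in c-Maf KO endothelial cells and 0.0473% in control endothelial cells, on 17 and 7 UMIs. Cox6a1 supplied 99.9% of Cox6a UMIs in c-Maf KO and 99.8% in control endothelial cells, beside 11 and 12 UMIs of the muscle isoform Cox6a2. The muscle isoforms Cox7a1 and Cox8b had 14 and 1 UMIs in c-Maf KO and 9 and 4 UMIs in control endothelial cells. Cox7b2 and Cox8c had none in either library, which allows a share of up to 0.0515% of Cox7b and Cox7b2 UMIs in c-Maf KO and 0.0971% in control endothelial cells. Ndufa4l2, a hypoxia-linked paralog of Ndufa4, had 16 UMIs in c-Maf KO and 3 in control endothelial cells, under the minimum of 50 for a ratio.

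Cox6b2, the isoform of Cox6b known from testis, was the exception, and stayed a minor one. It had 156 UMIs in 138 c-Maf KO endothelial cells and 27 UMIs in 26 control endothelial cells, a log2 ratio of 2.03 (1.46 to 2.70). Its share of Cox6b UMIs was 1.37% (1.17 to 1.60) in c-Maf KO and 0.428% (0.282 to 0.622) in control endothelial cells. Its level per total was higher in some clusters outside the endothelium, at 23.7 CPM in c-Maf KO and 22.6 CPM in control cells of cluster C1, and at 22.7 CPM in c-Maf KO and 22.2 CPM in control cells of Leukocytes_1. Within the endothelium it was highest in PV, at 15.2 CPM in c-Maf KO and 9.21 CPM in control cells, and KOS_1 stood at 6.61 CPM. Control PV held 434148 UMIs in 56 cells, so its 9.21 CPM rests on very few Cox6b2 UMIs. Cox6b2 did not keep its direction when both libraries were given the control library's mix of clusters (-0.70, -1.58 to 0.18).

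The shift over all endothelial cells was not seen over all cells of S or S2, which together hold most control endothelial cells, nor in PV. In cluster S the 81 genes held 2.12% of UMIs in 223 c-Maf KO cells and 2.11% in 1320 control cells, a log2 ratio of 0.00 (-0.02 to 0.02). In S2 they held 1.72% in 113 c-Maf KO cells and 1.70% in 1459 control cells (0.02, -0.0049 to 0.04). In PV, which has large vessel markers, they held 2.02% in 135 c-Maf KO cells and 2.05% in 56 control cells (-0.02, -0.06 to 0.01). No member was called in either direction in S, S2 or PV, where the rule called 8.79%, 6.69% and 12.3% of all genes. Sinusoidal markers stood at 6868 CPM in c-Maf KO and 7513 CPM in control cells of S. They stood at 8524 CPM in c-Maf KO and 10782 CPM in control cells of S2, and at 2343 CPM in c-Maf KO cells of KOS_1. Maf is not given by cluster here, and whether the c-Maf KO cells of S and S2 had lost Maf was not tested.

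Cycling endothelial cells, C-EC, were the endothelial cluster with a higher share in c-Maf KO cells, 2.37% in 408 c-Maf KO cells and 2.07% in 89 control cells (0.20, 0.17 to 0.22). The member median there was 0.20, beside -0.15 over all genes. Ndufa10, an accessory subunit of complex I, was called higher at 153 CPM in c-Maf KO and 84.7 CPM in control C-EC cells (0.84, 0.45 to 1.28), and so was Ndufb2 at 173 CPM in c-Maf KO and 98.8 CPM in control C-EC cells (0.80, 0.43 to 1.21). These were 2 of 73 members, where the rule called 5.7% of all genes higher, and none was called lower, where it called 14.6%. With equal weight for each cell the C-EC ratio was 0.10. In C-EC cells of 4000 to 8000 UMIs the share was 2.03% in 80 c-Maf KO and 2.08% in 23 control cells, and at 8000 to 16000 UMIs 2.40% in 142 c-Maf KO and 1.97% in 34 control cells. Ribosomal protein genes took 21.9% of UMIs in c-Maf KO and 13.8% in control C-EC cells, and their part in this difference was not tested.

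**Figure D2:**
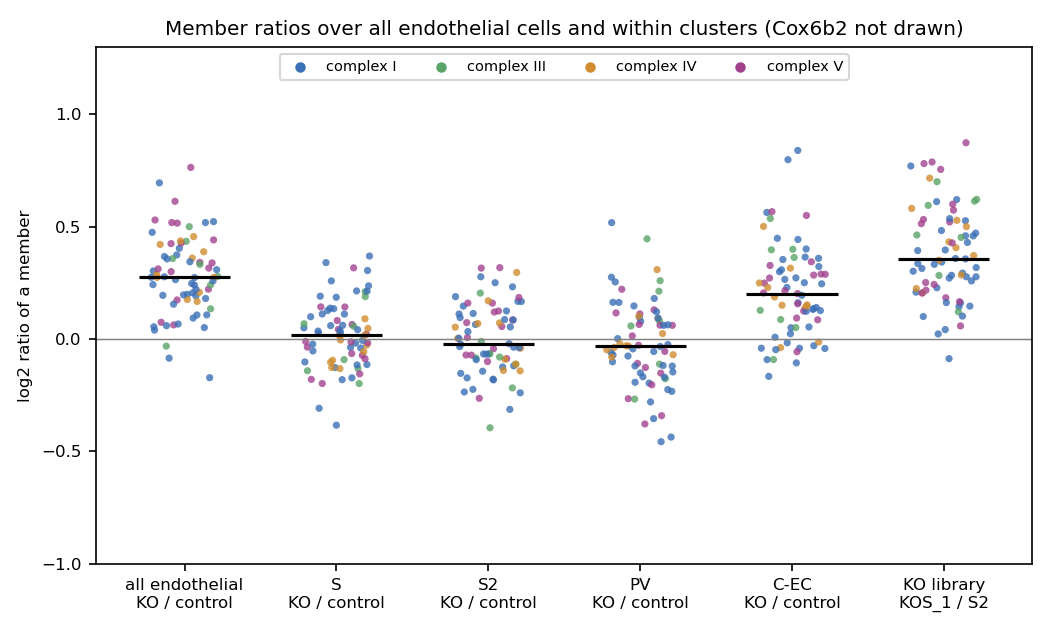
Ratio of each member on the log2 scale (y axis; points coloured by complex, black line the median; Cox6b2 is off the scale and not drawn) for c-Maf KO over control in all endothelial cells and in 4 clusters, and for KOS_1 over S2 in the c-Maf KO library. The medians of S, S2 and PV lie at 0.02, -0.02 and -0.03, and those of all endothelial cells, C-EC and KOS_1 over S2 at 0.28, 0.20 and 0.36.

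The libraries differed in which clusters their endothelial cells fell into. KOS_1 held 45.3% of c-Maf KO and 0.0339% of control endothelial cells, S and S2 together held 11.2% of c-Maf KO and 94.3% of control endothelial cells, and C-EC held 13.6% of c-Maf KO and 3.02% of control endothelial cells. With the control library's mix of 5 clusters applied to both libraries, the summed ratio was 0.02 and the member median -0.01. No member was then called higher, where the rule called 4.30% of all genes higher. That mix leaves out KOS_1 and KOS_3, which have almost no control cells, and gives most weight to S and S2. In the c-Maf KO library no S and no S2 cell was male-type (a Y-linked UMI and no Xist UMI, so that only cells with such a UMI can be typed), while the control library had 130 such cells in S and 697 in S2. Among female-type cells alone the ratio was 0.11 (0.08 to 0.14) in S, -0.01 (-0.04 to 0.01) in S2 and 0.20 (0.17 to 0.24) in C-EC.

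Within the c-Maf KO library, KOS_1 carried more respiratory chain transcripts than S2 and slightly more than S. The summed share was 2.25% in KOS_1 and 1.72% in S2, a log2 ratio of 0.39 (0.36 to 0.41), beside an all-gene median of -0.12. The ratio of KOS_1 over S was 0.09 (0.07 to 0.11). In cells of 4000 to 16000 UMIs KOS_1 over S2 was 0.37, in cells called G1 by the authors 0.37, and in female-type cells 0.36. Ribosomal protein genes took 24.4% of UMIs in KOS_1 and 15.3% in S2, and on a total without them and without mitochondrial and hemoglobin genes the ratio of KOS_1 over S2 was 0.59.

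In KOS_1 over S2, 14 of 74 members were called higher, where the rule called 9.71% of all genes higher, and none was called lower, where it called 17.1%. Atp5g1 was called at 350 CPM in KOS_1 and 190 CPM in S2 cells (0.87, 0.67 to 1.10), and Atp5b at 651 CPM in KOS_1 and 377 CPM in S2 cells (0.79, 0.64 to 0.94). Cox6b2 had 93 UMIs in KOS_1 and 0 in S2, at least 2.14-fold higher against a floor of 3 UMIs over S2. With Cox6b2 at this bound the member median was 0.36. By complex the summed ratio was 0.32 for I, 0.42 for III, 0.39 for IV and 0.44 for V. Because the clusters were drawn from the same expression data, these ratios describe the clusters and support nothing further.

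The other clusters made up mostly of c-Maf KO cells lay on either side. KOS_2 had the higher share, 2.61% in 518 cells. It was shallow, with a median of 1644.5 UMIs per cell, and held megakaryocyte markers at 915 CPM. KOS_3 had the lowest share of the endothelial clusters, 1.46% in 238 cells, with 13.1% of its UMIs from mitochondrial genes. Its ratio over S2 was -0.24, and -0.05 in cells of 4000 to 16000 UMIs.

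Several other quantities moved together with the endothelial shift, and their part in it was not tested. Ribosomal protein genes held 23.1% of UMIs in c-Maf KO and 14.4% in control endothelial cells, and 54 of 81 were called higher. The 10 cycling markers summed to 760 CPM in c-Maf KO and 253 CPM in control endothelial cells, and 10 of 10 were called higher. In cells called G1 the summed ratio was 0.27, and in cells of 4000 to 16000 UMIs 0.31. On a total without mitochondrially encoded, ribosomal protein and hemoglobin genes it was 0.46, with 18 of 74 members called higher, where 19.0% of all genes were called higher and 10.8% lower. In male-type cells it was 0.44 with 17 of 73 members and 14.2% of all genes called higher. These cells differ in cluster between the libraries. Of the 328 c-Maf KO cells 208 were of KOS_1 and none of S or S2, and of the 846 control cells 130 were of S and 697 of S2. A library pools 1 male and 1 female, so either type stands for 1 mouse per group. In female-type cells the summed ratio was 0.26 with 3 of 74 members and 11.7% of all genes called higher.

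Markers of other cell types in the endothelial clusters differed as well. The 6 hepatocyte markers summed to 43.8 CPM in c-Maf KO and 149 CPM in control endothelial cells, with 6 of 6 called lower. The 6 Kupffer markers summed to 24.0 CPM in c-Maf KO and 266 CPM in control endothelial cells, with 5 of 5 measured called lower. The 6 B lineage markers summed to 102 CPM in c-Maf KO and 47.7 CPM in control endothelial cells, with 5 of 6 called higher. No marker of these 3 lists was at 0 in either library. Sinusoidal markers summed to 2613 CPM in c-Maf KO and 9641 CPM in control endothelial cells, with 5 of 6 called lower, and large vessel markers to 321 CPM and 213 CPM, with 4 of 6 called higher. Of the measured cytotoxic, erythroid and stellate markers, 4 of 4, 3 of 3 and 3 of 4 were called lower. Without the 10% of cells richest in such transcripts the summed ratio was 0.31.

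The mitochondrially encoded subunits did not share the shift of their nuclear partners. The 13 genes held 6.79% of UMIs in c-Maf KO and 7.07% in control endothelial cells, their median ratio was -0.02, and none was called in either direction. Their ratios were uneven, from -0.29 for mt-Nd2 to 0.48 for the rare mt-Nd6. Within clusters they were lower in c-Maf KO cells, with ratios of -0.57 in S, -0.42 in PV and -0.19 in S2, and 0.07 in C-EC. Among the 13 clusters not counted as endothelial here, 11 had the same direction, from -0.36 in Kupffer-type cluster K to 0.07 in D. Cluster D is mixed by its markers. It held endothelial markers at 3480 CPM in c-Maf KO and 3530 CPM in control cells, and B lineage markers at 4873 CPM and 4185 CPM. Nuclear members stayed within 0.10 of 0 in 11 of these 13 clusters, and 7 intervals held 0. The lower mitochondrial share of the c-Maf KO library was thus also measured in cells other than the endothelial cells named by the labels.

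**Figure D3:**
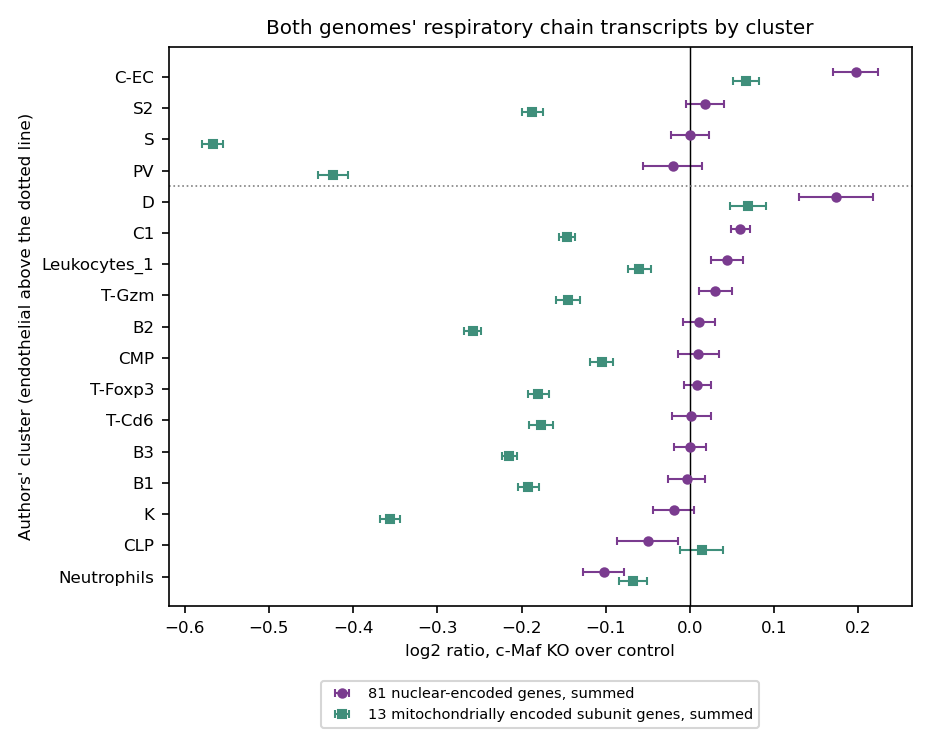
Ratio between the libraries (x axis, log2 of c-Maf KO divided by control) of the summed 81 nuclear-encoded genes (circles) and the summed 13 mitochondrially encoded subunit genes (squares) in each cluster with at least 50 cells per library, with 95% counting intervals. Circles cluster near 0 apart from C-EC, D and Neutrophils, and squares lie below 0 in S (-0.57), PV (-0.42) and most hematopoietic clusters.

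Neighbouring pathways gave a mixed picture in endothelial cells, to be read against the 14.2% of all genes called higher and 15.5% called lower. None of the 4 genes of complex II, succinate dehydrogenase, was called, with a median of 0.10. Of 15 complex I assembly factors none was called higher and Tmem126b was called lower, at 15.2 CPM in c-Maf KO and 25.6 CPM in control endothelial cells. Of 31 measured assembly factors of complexes II to V, Cox15, needed for the heme of complex IV, was called lower at 5.84 CPM in c-Maf KO and 9.05 CPM in control endothelial cells. Among 13 cytochrome c and carrier genes, Slc25a5, an ADP/ATP carrier, was called higher at 375 CPM in c-Maf KO and 219 CPM in control endothelial cells (0.78). Of 19 genes of the tricarboxylic acid cycle, Idh2 (0.83), Idh3a (0.63) and Fh1 (0.60) were called higher and none lower, a share of calls near that of all genes.

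Of 22 mitochondrial import and protein folding genes, 6 were called higher and none lower, where the rule called 14.2% of all genes higher and 15.5% lower. Timm8a1 and Timm10, small chaperones of the intermembrane space, had ratios of 1.46 and 1.44, and Hspd1, the mitochondrial chaperonin, 0.98. Of 18 measured regulators 3 were called higher, a share near that of all genes, and none lower. Myc stood at 45.2 CPM in c-Maf KO and 10.8 CPM in control endothelial cells (2.06), Esrrb at 6.90 CPM and 2.96 CPM (1.21), and the coactivator gene Ppargc1b at 11.5 CPM and 6.65 CPM (0.79). Of 18 measured glycolysis genes, the phosphofructokinase genes Pfkp (0.77) and Pfkm (0.68) were called higher, and the lactate transporter genes Slc16a3 (-1.59) and Slc16a1 (-1.42) were called lower.

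The summed level of the 81 genes spread wider over clusters than between the libraries within any cluster of at least 50 cells in each. Cluster and library are not independent, as KOS_1 had 1356 c-Maf KO cells and 1 control cell. Over clusters of at least 50 cells the summed share ran from 1.15% to 2.84% over 20 clusters of the c-Maf KO library and from 1.24% to 2.73% over 19 clusters of the control library. C1, whose leading listed markers were those of B lineage cells, was highest in both, and Neutrophils lowest in both. C1 carried proliferation transcripts, as 91.7% of its c-Maf KO cells and 90.4% of its control cells held a UMI of Mki67 or Top2a, at median depths of 7714 and 9100.5 UMIs, against 3.68% and 2.71% of B1 cells at 2878.5 and 3232 UMIs. T-Foxp3 stood at 2.38% in c-Maf KO and 2.37% in control cells, T-Gzm at 2.23% and 2.18%, and T-Cd6 at 1.78% and 1.77%. CMP, which carries plasmacytoid dendritic markers, stood at 2.12% in c-Maf KO and 2.10% in control cells, and K, with Kupffer markers, at 1.86% and 1.89%. Among these clusters CMP and B1 (2.13% in each library) were not apart beyond their intervals.

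**Figure D4:**
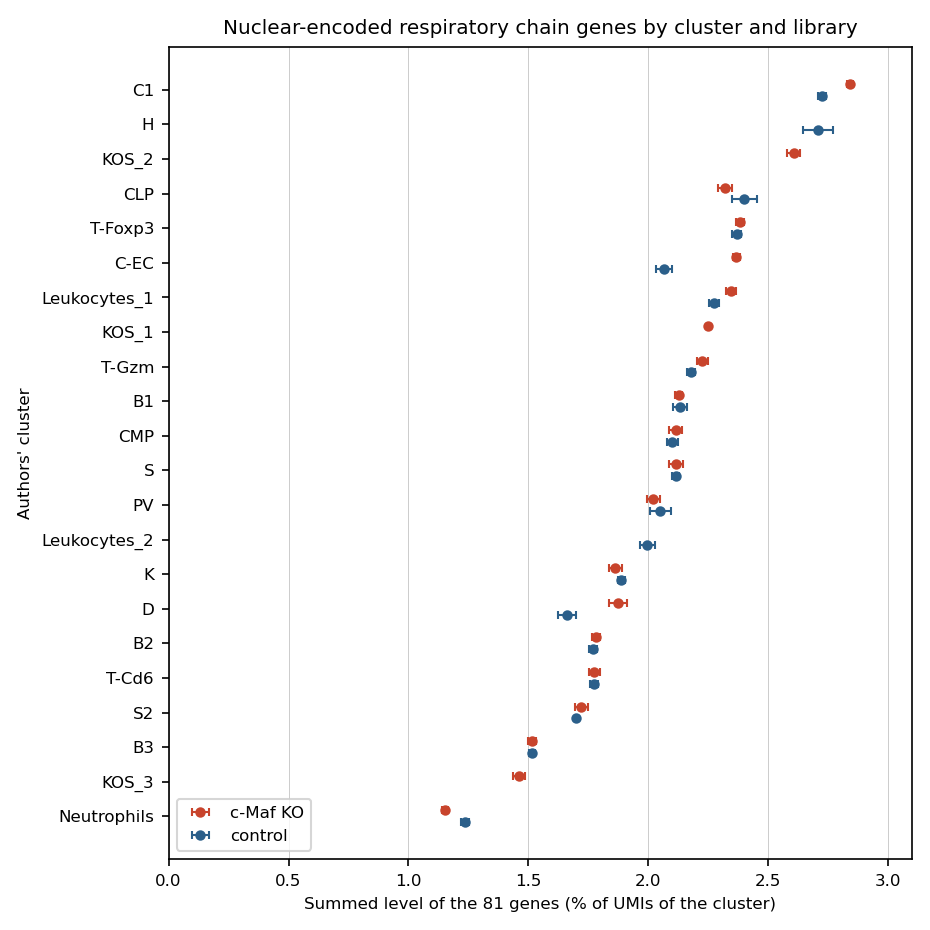
Summed level of the 81 genes as percent of UMIs (x axis) in each of the authors' clusters with at least 50 cells, for the c-Maf KO library (red, upper) and the control library (blue, lower), with 95% counting intervals. Both libraries run from Neutrophils at 1.15% and 1.24% to C1 at 2.84% and 2.73%, and the gap between libraries is widest in C-EC and D.

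The order depends in part on what else a cell transcribes. In Neutrophils 6 neutrophil markers alone took 30.6% of UMIs in c-Maf KO and 29.6% in control cells, and ribosomal protein genes took 39.7% in c-Maf KO and 39.1% in control T-Cd6 cells. As a share of UMIs outside these markers and outside mitochondrial, ribosomal protein and hemoglobin genes, Neutrophils remained lowest, at 1.92% in c-Maf KO and 2.03% in control cells. T-Cd6 moved to 3.195% in c-Maf KO and 3.188% in control cells. KOS_2 was then highest in the c-Maf KO library, at 4.28%, and C1 in the control library, at 3.85%. Across clusters the complexes kept step, with a rank correlation of complex I and complex V of 0.90 over 20 c-Maf KO clusters and 0.81 over 19 control clusters, which share library and total. The ratio of complex V to complex I UMIs ran from 0.911 in PV to 1.21 in T-Cd6 in the c-Maf KO library.

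Single members differed between clusters to unequal extents. Over 75 members measured, the highest cluster exceeded the lowest by a median of 3.03-fold in the c-Maf KO library and 2.95-fold in the control library. The smallest range was 1.70-fold in the c-Maf KO library and 1.64-fold in the control library. Both clusters were picked for each member, which favours wide ranges, so these are not set against the range of the sum. Neutrophils were the lowest cluster for 48 members in each library. The steepest was Cox6a2, the muscle-type isoform, which was highest in CMP, at 1140 CPM in c-Maf KO and 1163 CPM in control cells. The next cluster was B1, at 34.5 CPM in c-Maf KO and 19.99 CPM in control cells. A Cox6a2 UMI was present in 91.5% (85.6 to 95.5) of c-Maf KO and 91.8% (86.4 to 95.6) of control CMP cells, at median depths of 7067 and 8902 UMIs. In T-Cd6 cells, a lymphoid background at 5478 and 5609 UMIs, it was present in 0 of 210 c-Maf KO cells, which allows a share of up to 1.43% of cells with a UMI, and in 0.225% of control cells. These shares limit cells with a UMI, not cells that express the gene.

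Other members had their own high clusters. Cox7a2l, a factor of respiratory supercomplexes, was highest in CLP, at 1058 CPM in c-Maf KO and 960 CPM in control cells, and lowest in Neutrophils, at 162 CPM and 116 CPM. Cox5a peaked in the Kupffer-type cluster K, at 733 CPM in c-Maf KO and 902 CPM in control cells. Uqcrb was lowest in T-Cd6, at 130 CPM in both libraries. Ndufa5 was highest in C-EC, at 249.7 CPM in c-Maf KO and 240.0 CPM in control cells. Uqcrq, Ndufs3 and Ndufab1, which also encodes the mitochondrial acyl carrier protein, were highest in the control cells of cluster H, a shallow cluster with hepatocyte and sinusoidal markers that has under 50 c-Maf KO cells, while Ndufs8 was highest in B1 and Atp5g2 in C1.

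**Figure D5:**
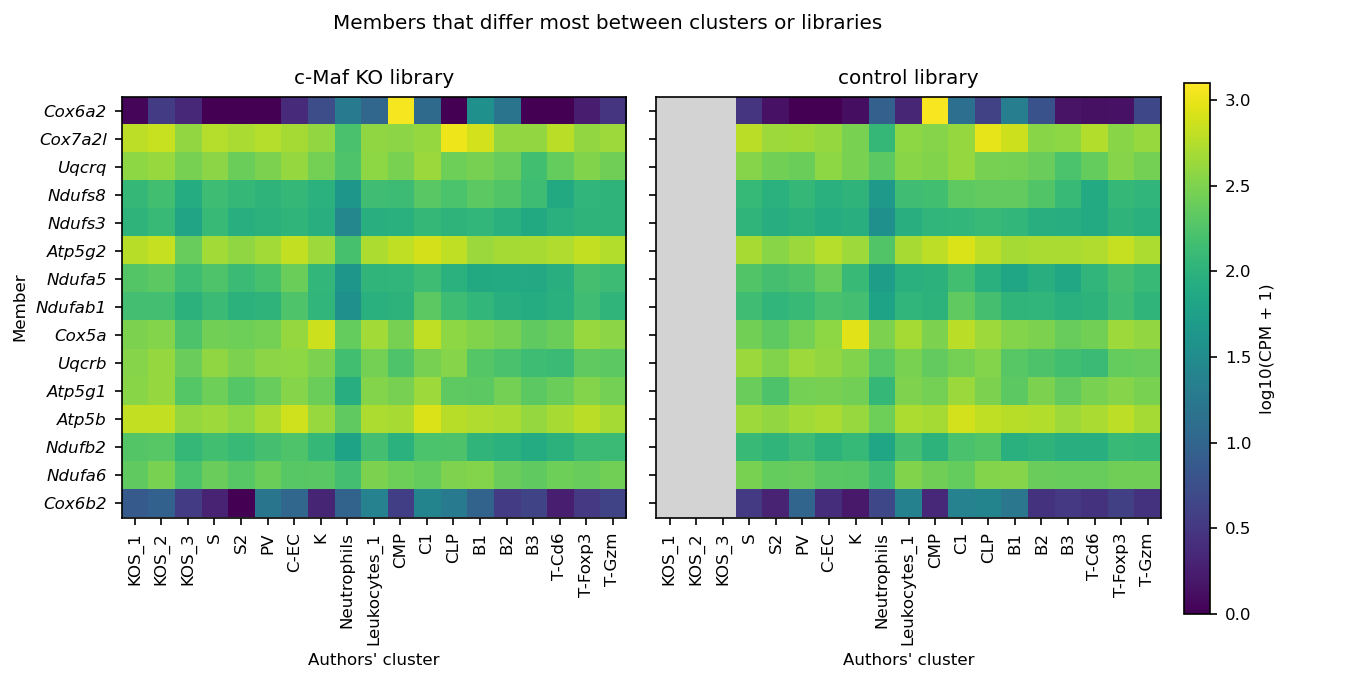
Level of 15 members as log10(CPM + 1) (colour) in the authors' clusters, in the c-Maf KO library (left) and the control library (right), with grey for fewer than 50 cells. Cox6a2 is brightest in CMP, at 1140 CPM in c-Maf KO and 1163 CPM in control cells, Cox7a2l in CLP and Cox5a in K.

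The B lineage clusters B1, B2 and B3 differed in the same way in both libraries. The summed share was 2.13% in B1, 1.78% in B2 and 1.52% in B3 in the c-Maf KO library, and 2.13%, 1.77% and 1.52% in the control library. The log2 ratio of B3 over B1 was -0.49 (-0.51 to -0.47) in the c-Maf KO library and -0.49 (-0.52 to -0.47) in the control library. All-gene medians were -0.22 and -0.20, so part of the distance is shared by genes at large. Ribosomal protein genes took 30.5% of UMIs in B3 and 21.6% in B1 of the c-Maf KO library. On a total without ribosomal protein, mitochondrial and hemoglobin genes the ratio was -0.29 in the c-Maf KO library and -0.28 in the control library. The B3 ratio of c-Maf KO to control had an interval that held 0 over all cells, while among female-type B3 cells the share was 1.48% in 279 c-Maf KO cells and 1.61% in 273 control cells (-0.13, -0.15 to -0.10).

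By the size rule 23 of 74 members were called lower in B3 of the c-Maf KO library, where the rule called 25.6% of all genes lower, and none was called higher, where it called 12.7%. In the control library 26 of 73 were called lower, where the rule called 24.3% of all genes, and none higher, where it called 13.5%. The count of members called lower is thus near the background in the c-Maf KO library and above it in the control library. The direction was nearly uniform in both. Of 73 members 68 lay below 0 in both libraries and 19 were called lower in both. Over the 73 members the ratios of the libraries, which share no cells, had a rank correlation of 0.83. Of all genes 36.9% lay above 0 in the c-Maf KO library and 39.1% in the control library. The overlap and the correlation were not computed over all genes, so neither is set against genes at large.

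Among the members with the lowest B3 over B1 ratios were subunits of complexes I, IV and V. Atp5md, a small subunit of the ATP synthase dimer, stood at 129 CPM in B3 and 286 CPM in B1 of the c-Maf KO library (-1.15), and at 144 CPM in B3 and 289.8 CPM in B1 of the control library (-1.01). Ndufa11 had ratios of -1.12 and -1.22, Ndufs5 of -1.14 and -1.03, and Cox7a2 of -0.95 and -1.12. Cox6a2 had 0 UMIs in B3 and 112 in B1 of the c-Maf KO library, which is at least 24.6-fold lower against a floor of 3 UMIs over B3, and with it at this bound the member median was -0.47. The c-ring gene Atp5g2 was the member with an interval above 0 in the c-Maf KO library, at 489 CPM in B3 and 428 CPM in B1 (0.19, 0.08 to 0.31), and Ndufv3 that of the control library, at 101 CPM in B3 and 74.9 CPM in B1 (0.42, 0.08 to 0.80).

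Neutrophils had a lower summed share in the c-Maf KO library, 1.15% in 324 c-Maf KO cells and 1.24% in 212 control cells (-0.10, -0.13 to -0.08). There 2 of 74 members were called, where the rule called 8.76% of all genes. Ndufab1 was called lower, at 34.6 CPM in c-Maf KO and 61.8 CPM in control cells (-0.83), and Cox6a2 higher, at 17.3 CPM in c-Maf KO and 7.86 CPM in control cells (1.11, 0.28 to 2.08), on 49 and 15 UMIs. The summed difference did not keep its direction in cells called G1, where the share was 1.09% in 203 c-Maf KO cells and 1.04% in 131 control cells, nor in cells of 4000 to 8000 UMIs, where it was 0.963% in 55 c-Maf KO cells and 0.793% in 36 control cells. It kept its direction in cells called G2M, at 1.18% in c-Maf KO and 1.39% in control cells. By depth it did so up to 2000 UMIs (0.876% and 1.05%), at 2000 to 4000 (0.757% and 0.779%) and over 16000 (1.39% and 1.55%). At 8000 to 16000 UMIs the shares were nearly equal, 1.060% and 1.061%.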

How the data were processed

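Gene expression was measured by droplet single-cell RNA sequencing in 1 c-Maf KO and 1 control library. The authors deposited whole UMI counts per gene and barcode and an annotation with cluster names, genotype, phase calls and the percent of mitochondrial UMIs per cell, per the file headers. The submitters' processing notes name Cell Ranger 4.0.0, FastQC 0.11.3 and Seurat 3.2.3, as well as build mm10, without parameters.

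Deposited counts were summed over the cells of a cluster in each library, in CPM or percent of UMIs. Log2 ratios used sums with 0.5 UMI added, with exact conditional binomial intervals. Levels carry exact Poisson and shares exact binomial (Clopper-Pearson) 95% intervals. The ratio and its call were checked on simulated data. Libraries were grouped by their titles, and cells by the authors' clusters, whose abbreviations are unexplained in the labels. Scrublet (scanpy 1.11.5) marked 148 c-Maf KO cells and 1 control cell, so its threshold did not work, and the 6% of cells with the highest scores (488 and 443) were left out in an alternative. Female-type cells held an Xist UMI and no UMI of 4 Y-linked genes. Promoter windows came from RefSeq.

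The members and lists were chosen with earlier results of these data known. Named members were those called, the 6 highest and 6 lowest in endothelial cells with at least 200 UMIs, isoform pairs, up to 3 called per direction in a cluster or list, and the 8 with the widest range over control clusters. Other named members were chosen after their values were seen, and a gene that the rule names is not reported here. Work used Python 3.11.15, numpy 2.4.6, scipy 1.17.1 and pandas 2.3.3.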

Additional observations from a re-analysis of the deposited data

Results flagged for a closer look

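The summed level of the 81 genes was 0.20 (log2) higher in c-Maf KO than in control cells of C-EC, while it was -0.050 in CLP (2.32% in 239 c-Maf KO cells and 2.40% in 55 control cells) and -0.10 in Neutrophils. In G1 cells the Neutrophil difference turned round, with 1.09% in c-Maf KO and 1.04% in control cells. In cells called G2M it kept its direction, with 1.18% in c-Maf KO and 1.39% in control cells. The values over all cells drew attention because their counting intervals lie on opposite sides of 0 under the same contrast. Each rests on 1 library per group, and the difference between the clusters was not tested.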

How the results depend on the processing

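The 4 members called higher in endothelial cells became 18 on a total without mitochondrially encoded, ribosomal protein and hemoglobin genes, 9 with the median of all genes set to 0, 17 in male-type cells, 29 at a minimum fold midway between 1 and 1.5, and 0 with the control cluster mix. Of all genes 14.2% were called higher in the main run, and 19.0%, 16.1%, 14.2%, 21.8% and 4.30% under these settings in turn. No member was called lower under any setting run, where 4.96% to 28.2% of all genes were. In the same order of those first 2 settings the summed endothelial ratio of 0.29 was 0.46 and 0.37. It was 0.27 in G1 cells, 0.44 in male-type cells, 0.26 in those of female type, 0.33 under 10% mitochondrial UMIs, 0.31 without the cells richest in other cell types' transcripts, 0.31 in cells of 4000 to 16000 UMIs, 0.21 with equal weight per cell and 0.023 with the control cluster mix. The member median of 0.28 was 0.44 on the first total, 0.43 in male-type cells and -0.0097 with the mix. Under that mix Cox6b2 (-0.70), Atp5b (-0.011), Ndufa12 (-0.097), Ndufb10 (-0.029) and Ndufs1 (-0.051) also lay below 0, each with an interval that held 0. The intervals of Ndufb10 and Ndufs1 held 0 in the main run too. The mix itself leaves out clusters with under 20 control cells.

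In C-EC the ratio of 0.20 was 0.36 on the reduced total, 0.34 with the median at 0, 0.23 without the cells with the highest doublet scores, 0.24 under 10% mitochondrial UMIs, 0.24 without the richest cells and 0.10 with equal weight. In S the ratio of 0.00 was -0.051, -0.079 and -0.030 under the first 3 of these, 0.11 in female-type cells and -0.035 with equal weight. In PV the ratio of -0.02 was 0.026 in G1 cells, -0.082 under 10% mitochondrial UMIs and 0.037 with equal weight. The cause of these moves was not tested. The window of 4000 to 16000 UMIs and a run without KOS_2 and KOS_3 were chosen after seeing the data. C-EC in G1 cells and S, PV and C-EC in male-type cells had under 20 cells in a library and were not run. No paired analysis was possible because each group has 1 library.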
